A study of Homo sapiens with 29 samples.

Results

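The 35 genes described here encode enzymes and regulators of sterol and fatty acid synthesis, chosen by symbol from a list of the pathway and all found among the 13492 genes of the deposited table. PolyA RNA from COLO320DM tumors grown in mice was read by RNA-seq. COLO320DM is a human colorectal adenocarcinoma cell line, and every group carried the same line. Tumors were taken 48 h after Helicon4 at 100 mpk (n = 5 libraries), Helicon4 at 30 mpk (n = 6), Helicon4neg at 30 mpk (n = 8) or vehicle (n = 10), with doses in mpk as the labels write them. Helicon4 is a helicon, a helical peptide, directed at β-catenin and its TCF partners. Structures of the 2 peptides are not given in the sources used here. Strain, sex and age of the host mice are not given in the sources used here.

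Cells make cholesterol and its isoprenoid side products from acetyl-CoA through the mevalonate pathway, and fatty acids from the same precursor through acetyl-CoA carboxylase and fatty acid synthase. Both routes are controlled by SREBP transcription factors, which are held in the endoplasmic reticulum by SCAP and INSIG proteins while sterols are abundant. When sterols run low, SCAP carries the SREBPs to the Golgi, where they are cut, and the freed fragment enters the nucleus and switches on the enzyme genes. SREBF2 encodes the form that acts mainly on sterol genes, and SREBF1 encodes forms that act more on fatty acid genes. Transcript levels, as measured here, do not report how much of either protein was cut.

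Depth, counted in M (mega) of recovered reads, was 34.3 to 61.6 M for the high dose of Helicon4 and 40.8 to 48.6 M for its low dose. Helicon4neg libraries had 27 to 59.4 M and vehicle libraries 26.8 to 60.9 M. Apart from replicate numbers, nothing in the labels ties libraries of a group to separate animals, so p-values measure the spread between these libraries. Of 6 colorectal epithelium markers 5 had a row, with vehicle means from 11.5 CPM for CDH17 to 3135 CPM for CDX2 (CPM are read counts per M reads on the authors' scaling). Their sum was 1919 to 2925 CPM with Helicon4 at 100 mpk and 2294 to 4362 CPM with vehicle. CDX2, an intestinal transcription factor that makes up most of the sum, fell at that dose (log2 fold change -0.59 ± 0.13, limma adjusted p = 0.000645), and the other 4 did not pass. The part of this change in the results was not tested. Of 8 adipocyte markers 2 had a row, PLIN4 and LIPE, and their summed level was 7.71 to 12.9 CPM with Helicon4 at 100 mpk and 9.05 to 16.4 CPM with vehicle. ADIPOQ and FABP4 had no row, nor did any of 6 hepatocyte markers. Of 5 endothelial markers 2 had a row, CLDN5 and EGFL7, while PECAM1, CDH5 and KDR had none. Those 2 summed to 23.9 to 39.2 CPM with Helicon4 at 100 mpk and 38.7 to 94.2 CPM with vehicle. Both were called lower at that dose, with log2 fold changes from -1.86 to -0.61. Of 7 fibroblast markers 4 had a row and summed to 41.1 to 50 CPM and 29.1 to 42.8 CPM in the same groups. Among them 1 was called lower and 2 higher, with log2 fold changes from -0.29 to 1.13. Of 5 leukocyte markers 2 had a row and summed to 20.7 to 34.4 CPM and 23.7 to 41.1 CPM, with 1 called lower. Of the 2 adipocyte markers 1 was called lower. Over all genes tested 15.9% fell and 14.3% rose. The part of host cells in the results was not tested, and in bulk tumors fewer cells of a type cannot be told apart from less RNA per cell.

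A pair of libraries had the most negative dependence of values on gene length and is described below as standing apart. The slope of log2 values on log2 gene length was -0.321 in Helicon4neg replicate 2 and -0.186 in vehicle replicate 6, against a median of 0.023 over the 29 libraries. Vehicle replicates 4 and 8 came next, at -0.135 and -0.132, and stayed in the fits without the pair. EBP read 331 CPM in that Helicon4neg library, against at most 132 CPM in the other 7, and HMGCS1 read 33.9 CPM there. Counts of members called are given with and without Helicon4neg replicate 2 and vehicle replicate 6. Library titles also carry codes of unstated meaning, and no code holds vehicle together with Helicon4.

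The members were well expressed. In vehicle tumors their median level per kilobase of gene length was 14.3 CPM per kb, against 5.37 CPM per kb over the 13373 genes tested, and 33 of the 35 lay above that overall median. SCD, the desaturase that makes monounsaturated fatty acids, ranked first with 81.1 ± 17.1 CPM per kb (SD, n = 10). EBP, a sterol isomerase, followed with 63.4 ± 16.5 CPM per kb and FASN, fatty acid synthase, with 53.8 ± 11.2 CPM per kb. EBP and FASN differed by less than their SDs, and SCD and EBP by slightly more than either SD. At the low end, CYP51A1, the lanosterol demethylase, had 0.574 ± 0.26 CPM per kb, with 11 to 249 recovered reads per library. In GENCODE 29 that gene shares 79.4% of its exonic bases with another annotated gene on the same strand, so its low value is uncertain. GGPS1 shares 37.3% of its exonic bases with TBCE on the same strand, ACAT2 shares 26.5% with SOD2 on the opposite strand, and how the authors' counting treated such reads is not given in the sources used here.

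Promoter sequences are shown for 4 members that fell with Helicon4 at 100 mpk, one from each role. SREBF2 was taken among the regulators because its window held the one TCACNCCAC match of the list. They are the 250 bases before the annotated start, from RefSeq on GRCh38.p14, read 5′ to 3′ on the strand of the gene. Capitals mark CCAAT, the box bound by NF-Y, and CACNCCAC, alone or within TCACNCCAC, a form of the sterol regulatory element, on either strand. The windows are SREBF2 at chr22:41832855-41833104 on the plus strand, FDPS at chr1:155308616-155308865 on the plus strand, LSS at chr21:46228775-46229024 on the minus strand and SCD at chr10:100346983-100347232 on the plus strand.
SREBF2: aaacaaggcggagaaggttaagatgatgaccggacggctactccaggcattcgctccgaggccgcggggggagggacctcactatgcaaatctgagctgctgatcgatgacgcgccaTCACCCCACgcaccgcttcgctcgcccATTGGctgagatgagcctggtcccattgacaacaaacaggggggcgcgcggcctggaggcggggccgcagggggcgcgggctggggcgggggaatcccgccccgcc
FDPS: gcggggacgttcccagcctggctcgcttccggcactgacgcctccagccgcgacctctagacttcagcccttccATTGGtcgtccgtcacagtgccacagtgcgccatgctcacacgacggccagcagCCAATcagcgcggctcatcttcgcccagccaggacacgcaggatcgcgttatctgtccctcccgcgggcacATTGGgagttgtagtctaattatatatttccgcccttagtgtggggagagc
LSS: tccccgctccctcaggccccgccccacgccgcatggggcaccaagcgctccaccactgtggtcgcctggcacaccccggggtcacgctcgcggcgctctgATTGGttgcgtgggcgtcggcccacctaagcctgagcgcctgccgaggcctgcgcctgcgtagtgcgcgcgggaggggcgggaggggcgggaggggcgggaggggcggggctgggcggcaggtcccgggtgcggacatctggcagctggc
SCD: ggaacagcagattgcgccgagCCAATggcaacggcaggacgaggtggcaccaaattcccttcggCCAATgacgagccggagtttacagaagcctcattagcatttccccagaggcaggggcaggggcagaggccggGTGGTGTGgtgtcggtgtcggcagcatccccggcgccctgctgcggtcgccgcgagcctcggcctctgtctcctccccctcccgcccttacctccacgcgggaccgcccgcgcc

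FDPS carries 3 CCAAT boxes in this stretch, SCD 2, and SREBF2 and LSS 1 each. Over the full windows, which also hold 50 bases after the start, 31 members had 44 windows; FDFT1, SQLE, ACAT2 and FASN had none. CCAAT stood in 63.6% of the member windows and in 34.6% of all 35116 windows. The GC box GGGCGG stood in 86.4% and 45%, the E-box CACGTG in 13.6% and 7.3%, CACNCCAC in 15.9% and 5.9%, and TCACNCCAC in 2.3% and 1.1%, both strands searched in each case. The set of all windows was not limited to the genes tested here. It was not matched to the members in expression or base composition, and some genes hold several windows. Among the 13 members with a window that fell with Helicon4 at 100 mpk, 9 held CCAAT and 13 held GGGCGG. Of the other 18 with a window, 15 held CCAAT and 16 held GGGCGG. CACNCCAC stood in 2 of those 13 members and in 4 of the other 18. The 2 are SREBF2 and SCD, both shown above, so the sequences shown hold it more often than the members that fell. A match is a run of letters in these windows and does not show binding.

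Helicon4 at 100 mpk against vehicle compares these genes between the high dose and no peptide. Helicon4neg was given at 30 mpk only, so no control peptide matches the high dose. At this dose 15 of the 35 members fell and 0 rose (limma on log2(CPM + 1), adjusted p under 0.05 over all genes), while 15.9% of all genes tested fell and 14.3% rose. Each role held some of the decreases: 4 of 8 mevalonate enzymes, 3 of 11 squalene and sterol enzymes, 3 of 6 regulators and 5 of 10 fatty acid enzymes. The median log2 fold change of the members was -0.35, with 30 of 35 below 0, against a median of 0.01 over all genes. Sizes were moderate, from -0.89 for MVD to -0.35 for FADS1 among those that fell. In 3 members, FDPS, LSS and DHCR7, all 5 treated libraries lay below all 10 vehicle libraries, which held for 4.13% of all genes. By edgeR's quasi-likelihood test on recovered reads 18 members fell and 0 rose, in a fit that called 4061 of all genes against 4043. With the title code in the fit 0 members passed, the median standard error over all genes was 3.22 times as large, and the log2 fold changes of PMVK, MVD, EBP, SREBF1 and SCAP turned positive; code and treatment cannot be told apart here.

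**Figure D1:**
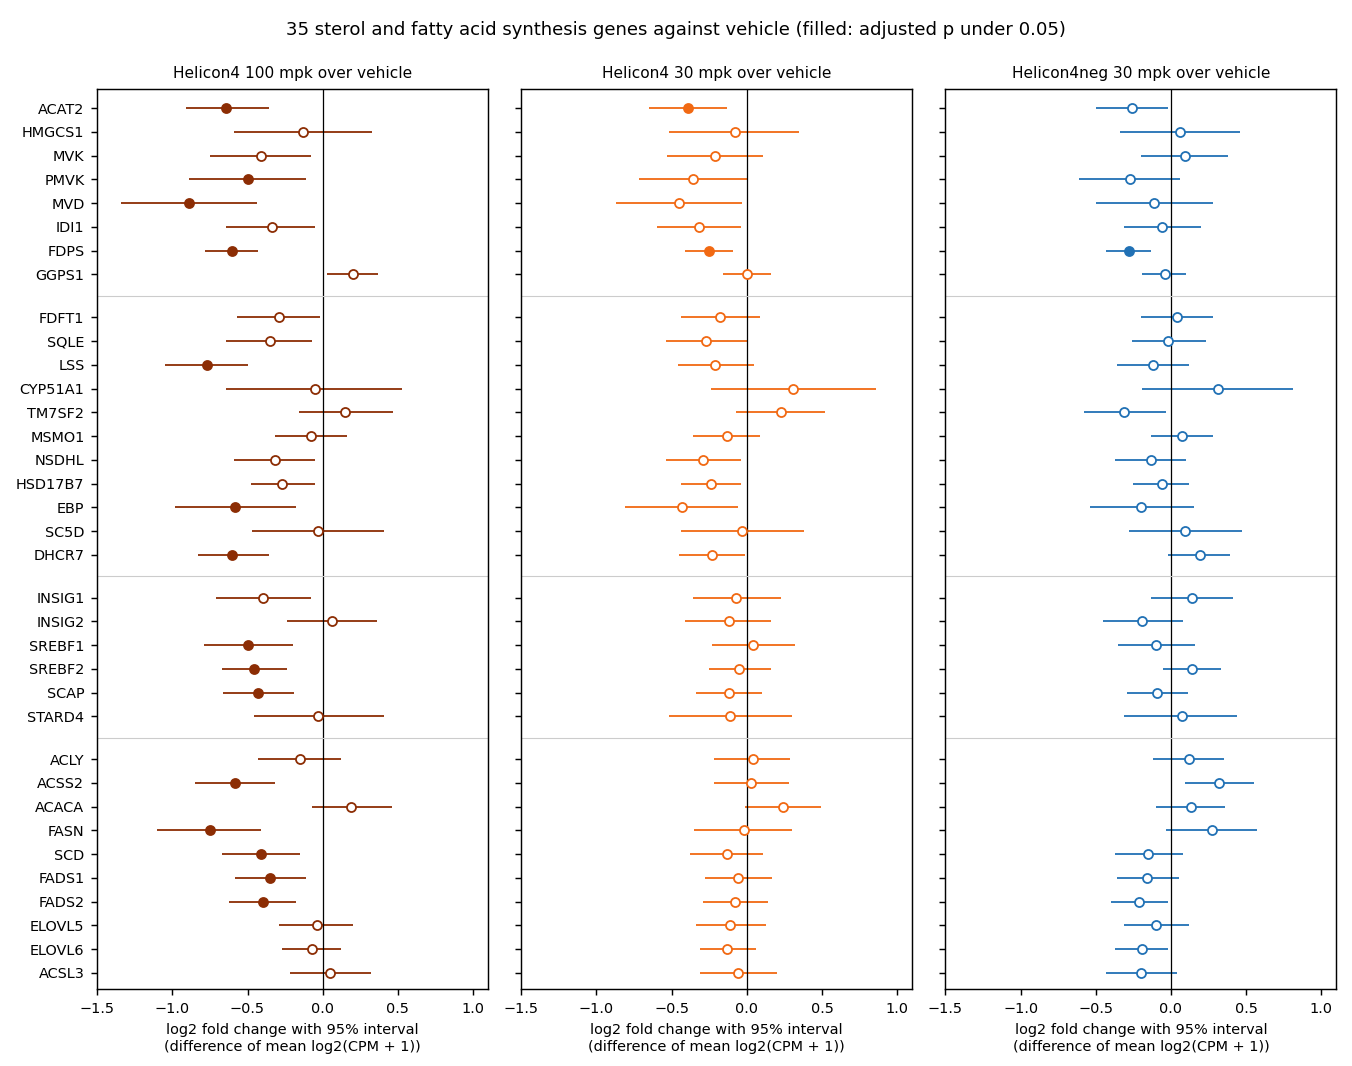
Log2 fold changes of the 35 members (rows, by role from mevalonate enzymes at the top to fatty acid enzymes) for Helicon4 at 100 mpk and at 30 mpk and for Helicon4neg, each over vehicle; bars are 95% intervals from limma and filled points passed at an adjusted p under 0.05. There are 15 filled points at 100 mpk, 2 at 30 mpk and 1 for Helicon4neg, all left of 0.

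FDPS, farnesyl diphosphate synthase, makes the branch point metabolite for sterols and isoprenoids. Its level was 82.6, 67.8, 73.8, 68.2 and 84.6 CPM in the Helicon4 100 mpk tumors, against a lowest of 92.9, a median of 111 and a highest of 151 CPM in vehicle tumors. The groups did not overlap, and the log2 fold change was -0.60 ± 0.08 (SE; limma adjusted p = 2.1e-06). MVD, which decarboxylates mevalonate diphosphate, read 43.6, 30.3, 29.3, 32.4 and 33.6 CPM with Helicon4 at 100 mpk, against 42.0 to 101 CPM with vehicle (median 64.4). Only replicate 1 reached into the vehicle range, and the log2 fold change was -0.89 ± 0.22 (limma adjusted p = 0.00253). With the length slope as a covariate it was -0.59 ± 0.13, still past the threshold (limma adjusted p = 0.000491).

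ACAT2, the cytosolic thiolase that feeds the pathway, read 39.3, 29.2, 36.9, 33.3 and 42.6 CPM with Helicon4 at 100 mpk. In vehicle tumors it lay between 37.1 and 89.5 CPM, with a median of 60.5 CPM. All 5 treated libraries lay below that median and 3 lay below the lowest vehicle library, with a log2 fold change of -0.64 ± 0.13 (limma adjusted p = 0.00054). PMVK, phosphomevalonate kinase, fell less surely: 37.5 ± 4.02 CPM (SD, n = 5) with Helicon4 at 100 mpk and 54.5 ± 12.9 CPM (n = 10) with vehicle, a log2 fold change of -0.50 ± 0.19 (limma adjusted p = 0.0451). That call was lost in 14 of 29 fits that left out 1 library each, and the log2 fold change was -0.20 ± 0.07 with the length slope in the fit.

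The other mevalonate enzymes did not pass. MVK, mevalonate kinase, had a log2 fold change of -0.41 ± 0.16 (limma adjusted p = 0.0572) and IDI1, the isopentenyl diphosphate isomerase, -0.34 ± 0.15 (limma adjusted p = 0.0742). HMGCS1, HMG-CoA synthase, averaged 73.8 ± 14.7 CPM with Helicon4 at 100 mpk and 82.6 ± 22.8 CPM with vehicle, with a 95% interval of -0.59 to 0.33 on the log2 scale. It varied between libraries with a within-group SD of 0.44 on that scale, against a member median of 0.25. With the length slope as a covariate HMGCS1 had a log2 fold change of -0.45 ± 0.12 and passed (limma adjusted p = 0.00415). GGPS1, which makes geranylgeranyl diphosphate, was one of 5 members on the other side of 0, at 0.20 ± 0.08 (limma adjusted p = 0.0646).

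**Figure D2:**
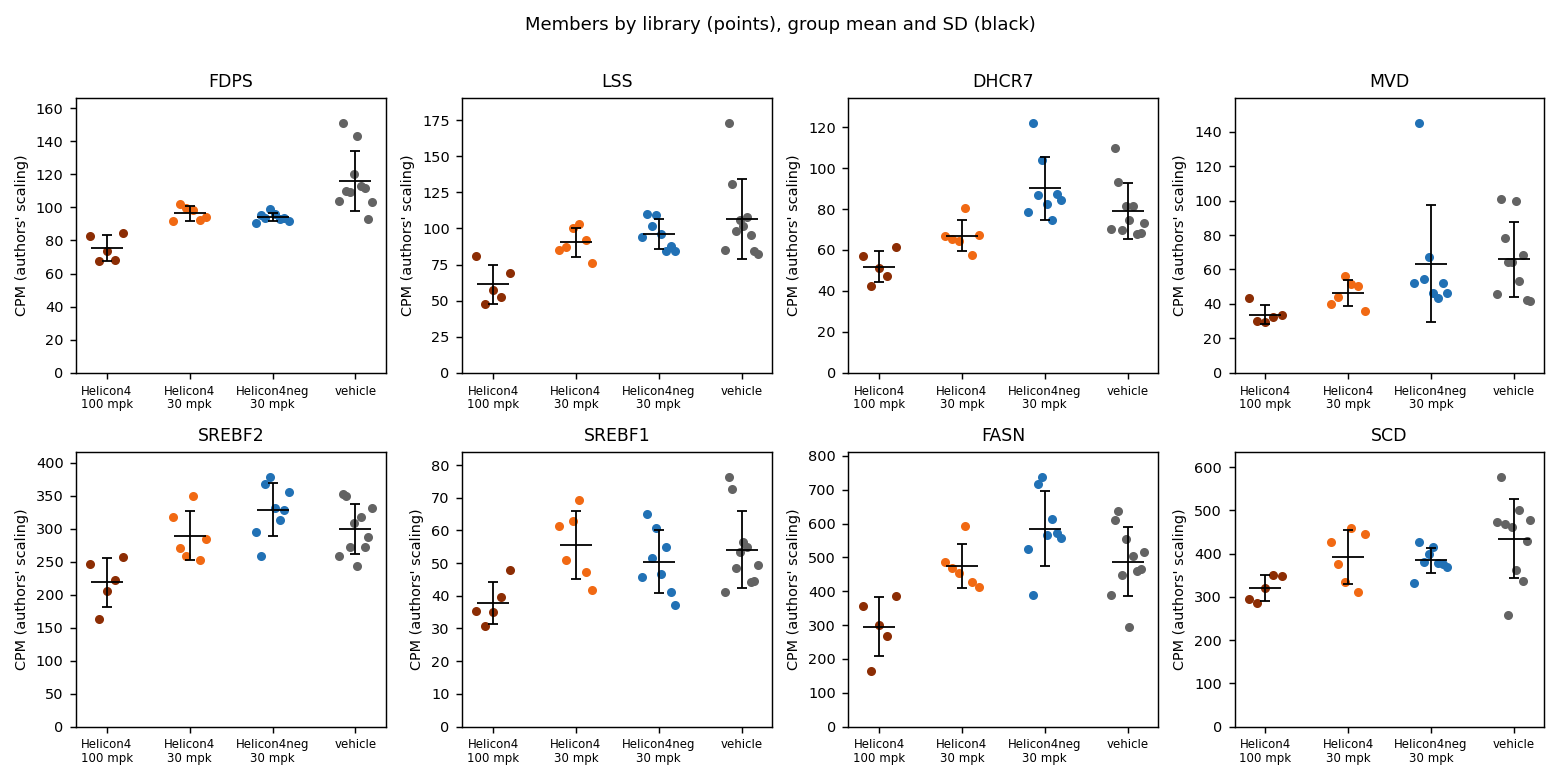
Level of 8 members in CPM on the authors' scaling, 1 point per library, with the group mean and SD in black; groups are, from the left, the high dose of Helicon4 (n = 5), its low dose (n = 6), Helicon4neg (n = 8) and vehicle (n = 10). For FDPS, LSS and DHCR7 all 5 points of Helicon4 at 100 mpk lie below the vehicle points; for SCD they lie inside the vehicle range.

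LSS, which closes squalene epoxide into lanosterol, had the largest decrease among the squalene and sterol enzymes. It read 81.0, 47.9, 57.1, 52.4 and 69.3 CPM with Helicon4 at 100 mpk, against 82.5 to 173 CPM with vehicle (median 99.9). The groups lay apart, although replicate 1 came close to the lowest vehicle library, and the log2 fold change was -0.77 ± 0.13 (limma adjusted p = 5.41e-05). DHCR7, 7-dehydrocholesterol reductase, read 57.3, 42.2, 51, 47.3 and 61.3 CPM in treated tumors. Vehicle tumors ranged from 68.0 to 110 CPM with a median of 73.9 CPM, again without overlap, for a log2 fold change of -0.60 ± 0.11 (limma adjusted p = 0.000195).

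EBP read 113, 112, 84.0, 91.0 and 97.8 CPM with Helicon4 at 100 mpk and 110 to 246 CPM with vehicle (median 149). Replicates 1 and 2 reached the low end of vehicle, and the log2 fold change of -0.58 ± 0.20 passed (limma adjusted p = 0.024). It was -0.50 ± 0.11 without the 2 libraries that stood apart and -0.28 ± 0.07 with the length slope in the fit, both past the threshold. Leaving out Helicon4 100 mpk replicate 3 or replicate 4 ended the call, with an adjusted p of up to 0.0774 from limma.

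The remaining 8 enzymes of the sterol branch did not pass. SQLE, squalene epoxidase, averaged 100 ± 7.9 CPM with Helicon4 at 100 mpk and 131 ± 30.1 CPM with vehicle, a log2 fold change of -0.35 ± 0.14 (limma adjusted p = 0.0539). HSD17B7 had -0.27 ± 0.11, NSDHL -0.32 ± 0.13 and FDFT1, squalene synthase, -0.29 ± 0.14 as log2 fold changes. Edge cases of this kind were called by some settings: SQLE, IDI1 and HSD17B7 passed with edgeR's quasi-likelihood test, at adjusted p of 0.0366, 0.0485 and 0.0458. HSD17B7 has a near-identical pseudogene, so its reads may be split. MSMO1, a methyl oxidase, stood at -0.08 ± 0.12, SC5D, a desaturase, at -0.03 ± 0.21 and CYP51A1 at -0.05 ± 0.28. TM7SF2, a sterol reductase, was at 0.15 ± 0.15 on the same log2 scale, above 0, and passed with the length slope in the fit, at 0.36 ± 0.09 (limma adjusted p = 0.0027).

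Both SREBP genes fell with the high dose. SREBF2 read 247, 163, 206, 222 and 257 CPM with Helicon4 at 100 mpk, against 243 to 352 CPM with vehicle (median 299). Replicates 1 and 5 lay at the low edge of vehicle and the other 3 below it, with a log2 fold change of -0.46 ± 0.11 (limma adjusted p = 0.00163). SREBF1 read 35.5, 30.7, 35, 39.7 and 47.8 CPM in treated tumors and 41.3 to 76.5 CPM in vehicle tumors (median 51.3). Replicate 5 alone reached the vehicle range, and the log2 fold change was -0.50 ± 0.14 (limma adjusted p = 0.00934).

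SCAP, the escort of the SREBPs, read 103, 66.0, 77.3, 86.6 and 95 CPM with Helicon4 at 100 mpk. Vehicle tumors lay between 95.7 and 138 CPM (median 116), so that replicate 1 alone was within their range. The log2 fold change was -0.43 ± 0.11 (limma adjusted p = 0.00487). INSIG1, the retention protein whose gene is itself a SREBP target, read 31.6, 30.9, 36.4, 38 and 44.2 CPM with Helicon4 at 100 mpk, against 32.9 to 60.9 CPM with vehicle (median 49.2). Its log2 fold change of -0.40 ± 0.15 just missed the threshold (limma adjusted p = 0.0501) and passed by edgeR's quasi-likelihood test (adjusted p = 0.0395). INSIG2, its paralog, stood at 0.06 ± 0.15, with 63.3 CPM in Helicon4 100 mpk replicate 4 and at most 35.4 CPM in the other 4. STARD4, a sterol carrier, stood at -0.03 ± 0.21 as a log2 fold change.

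FASN was the fatty acid enzyme with the largest decrease. It read 356, 165, 300, 267 and 387 CPM with Helicon4 at 100 mpk, against 295 to 638 CPM with vehicle (median 484). Replicates 2 and 4 lay below all vehicle libraries, and the log2 fold change was -0.75 ± 0.17 (limma adjusted p = 0.00106). Without Helicon4 100 mpk replicate 2, the lowest library, it ranged no further than -0.56, still called. ACSS2, which makes acetyl-CoA from acetate, read 27.1, 31.7, 26.1, 22.1 and 38.4 CPM in treated tumors. Vehicle tumors lay between 33.5 and 69.8 CPM (median 41.6), above 4 of the 5 treated libraries, for a log2 fold change of -0.58 ± 0.13 (limma adjusted p = 0.000934).

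The desaturases fell by less. SCD read 295, 286, 321, 351 and 348 CPM with Helicon4 at 100 mpk, against 259 to 578 CPM with vehicle (median 465). All 5 libraries were inside the vehicle range but below its median, with a log2 fold change of -0.41 ± 0.13 (limma adjusted p = 0.0147), and without replicate 2 the adjusted p was 0.0505. FADS1, the delta-5 desaturase, read 143, 146, 161, 161 and 184 CPM in treated tumors and 141 to 234 CPM in vehicle tumors (median 211). These ranges overlapped, and the log2 fold change was -0.35 ± 0.12 (limma adjusted p = 0.024), lost without Helicon4 100 mpk replicate 1 or replicate 2. FADS2, the delta-6 desaturase, read 99.8, 88.4, 91.6, 102 and 117 CPM with Helicon4 at 100 mpk and 100 to 190 CPM with vehicle (median 132). Its log2 fold change was -0.40 ± 0.11 (limma adjusted p = 0.00619), and 490 exonic bases of FADS1 and FADS2 overlap on opposite strands.

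The other 5 fatty acid enzymes did not pass. ACLY, which splits citrate to acetyl-CoA, had 231 ± 39.7 CPM with Helicon4 at 100 mpk and 260 ± 55.5 CPM with vehicle. ACACA, acetyl-CoA carboxylase, had 164 ± 25.8 CPM with Helicon4 at 100 mpk and 145 ± 29.3 CPM with vehicle, a log2 fold change of 0.19 ± 0.13 (limma adjusted p = 0.275). The elongases ELOVL5 and ELOVL6 stood at -0.04 ± 0.12 and -0.07 ± 0.10, and ACSL3, a fatty acyl-CoA ligase, at 0.05 ± 0.13. The 95% interval of ACACA, the step before fatty acid synthase, ran from -0.07 to 0.46 on the log2 scale. Over all roles, 20 members did not pass, and for 13 of them the 95% interval excluded a change of 1.5-fold in either direction.

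Other genes of the pathways were read from lists, which were chosen with earlier results of these data known. Of 8 further sterol and isoprenoid enzymes 1 fell and 0 rose, where 15.9% of all genes tested fell and 14.3% rose. PDSS1, of the ubiquinone side chain, had 18.3 ± 1.24 CPM with Helicon4 at 100 mpk and 23.8 ± 1.31 CPM with vehicle. Of 6 genes of SREBP processing and INSIG-linked degradation 1 fell, ERLIN1, with a log2 fold change of -0.29 ± 0.08 (limma adjusted p = 0.00491).

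Among 7 genes of sterol uptake and trafficking 3 fell and 1 rose, against the same 15.9% and 14.3% of all genes. SCARB1, the HDL receptor, had 103 ± 18.1 CPM with Helicon4 at 100 mpk and 182 ± 22.8 CPM with vehicle (log2 fold change -0.82 ± 0.10, limma adjusted p = 2.72e-07). STARD3, a late endosomal sterol carrier, fell by 0.55 and TMEM97 by 0.28 on the log2 scale, and NPC2, a lysosomal sterol carrier, rose by 0.30. Of 5 LXR factors and targets 2 fell, NR1H2 and MYLIP, and APOE, an apolipoprotein, rose by 0.80 on the log2 scale. Of 21 other genes of fatty acid and NADPH supply 6 fell and 0 rose, at log2 fold changes of -0.43 for the citrate carrier SLC25A1, -0.36 for PGD, -0.48 for MID1IP1, -0.46 for MCAT, -0.67 for ELOVL7 and -0.49 for FADS3. The median log2 fold change of that list was -0.08, against -0.35 for the members and 0.01 for all genes. It was 0.0 for the further sterol and isoprenoid enzymes and 0.07 for SREBP processing and INSIG-linked degradation. For sterol uptake and trafficking it was -0.04, and for the LXR list 0.10.

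Seen by library, all 15 members that fell lay below their vehicle median in each of the 5 high dose libraries. Those members were called from these same libraries, so the count describes them and gives no separate support. The median of all 35 members relative to the vehicle mean was -0.39, -0.48, -0.34, -0.36 and -0.17 on the log2 scale in the high dose libraries. The same median over all genes was between -0.03 and 0.03 in those libraries. Replicate 2 was lowest of its group in 17 members and replicate 5 highest in 17. Vehicle tumors were themselves uneven. Replicate 2 was the highest vehicle library in 17 members and sat 0.34 above the vehicle mean at the median member. Vehicle replicate 4 sat at -0.18 and was lowest in 11 members. Of the 15 members that fell, 13 lay below the vehicle median in each of vehicle replicates 1 and 9. The count was 11 in vehicle replicate 4, 10 in vehicle replicate 10 and 0 to 8 in the others. Vehicle replicates 1, 9 and 10 carry other title codes than vehicle replicates 2 to 8, and the part of the code was not tested. Helicon4neg replicate 2 was at once the highest of its group in 14 members and the lowest in 15.

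**Figure D3:**
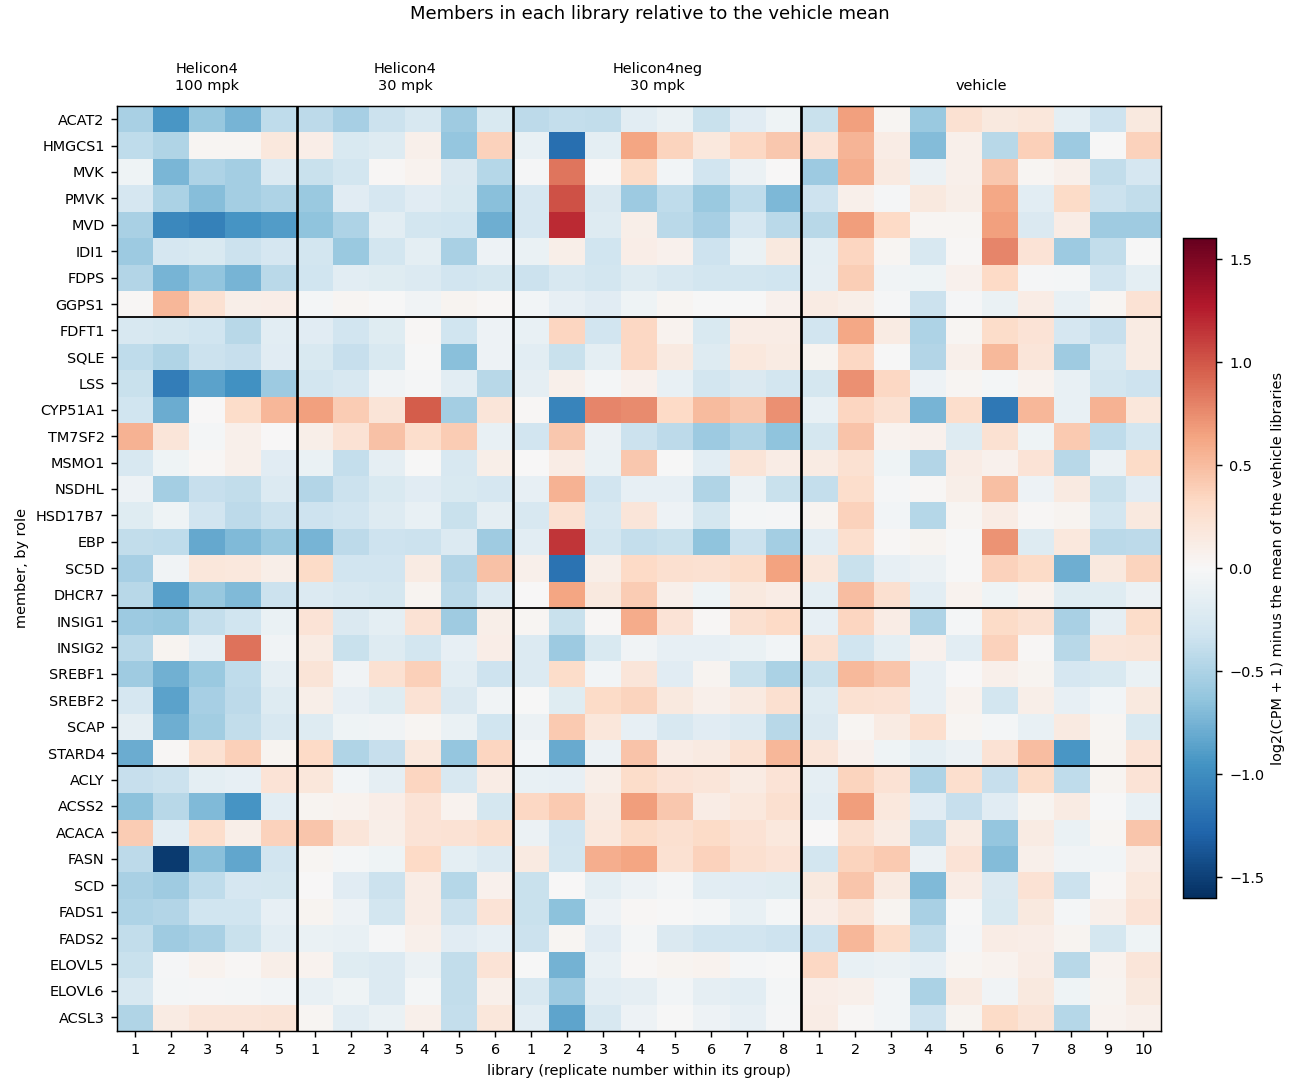
Log2(CPM + 1) of each member (rows, by role) in each library (columns, by group and replicate number) minus the mean of the 10 vehicle libraries; blue is lower and red higher than that mean. The columns of Helicon4 at 100 mpk are mostly blue, with medians from -0.48 to -0.17, and column 2 of Helicon4neg holds both the deepest reds and deep blues of its group.

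The members differed in how they followed the length slope of a library. EBP, PMVK and MVD were highest in Helicon4neg replicate 2, at 331, 109 and 145 CPM, and HMGCS1, SC5D and ACSL3 were lowest there, at 33.9, 13.7 and 36.7 CPM. Gene length as deposited was 1.28 kb for PMVK and 2.41 kb for EBP, but 4.72 kb for MVD and 4.70 kb for HMGCS1, so members of like length differed in direction. FDPS read 95.4 CPM in that library, inside the 90.5 to 99.0 CPM of its group. The slope ran from -0.023 to 0.097 with Helicon4 at 100 mpk and from -0.186 to 0.056 with vehicle. With the slope as a covariate 15 of the 15 calls at 100 mpk remained and the count rose to 21 lower and 1 higher; without the 2 libraries that stood apart 15 of 15 remained among 19 lower. Calls over all genes were 5113 with the slope and 5276 without those 2 libraries, against 4043 in the main fit. The cause of the slope was not tested.

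**Figure D4:**
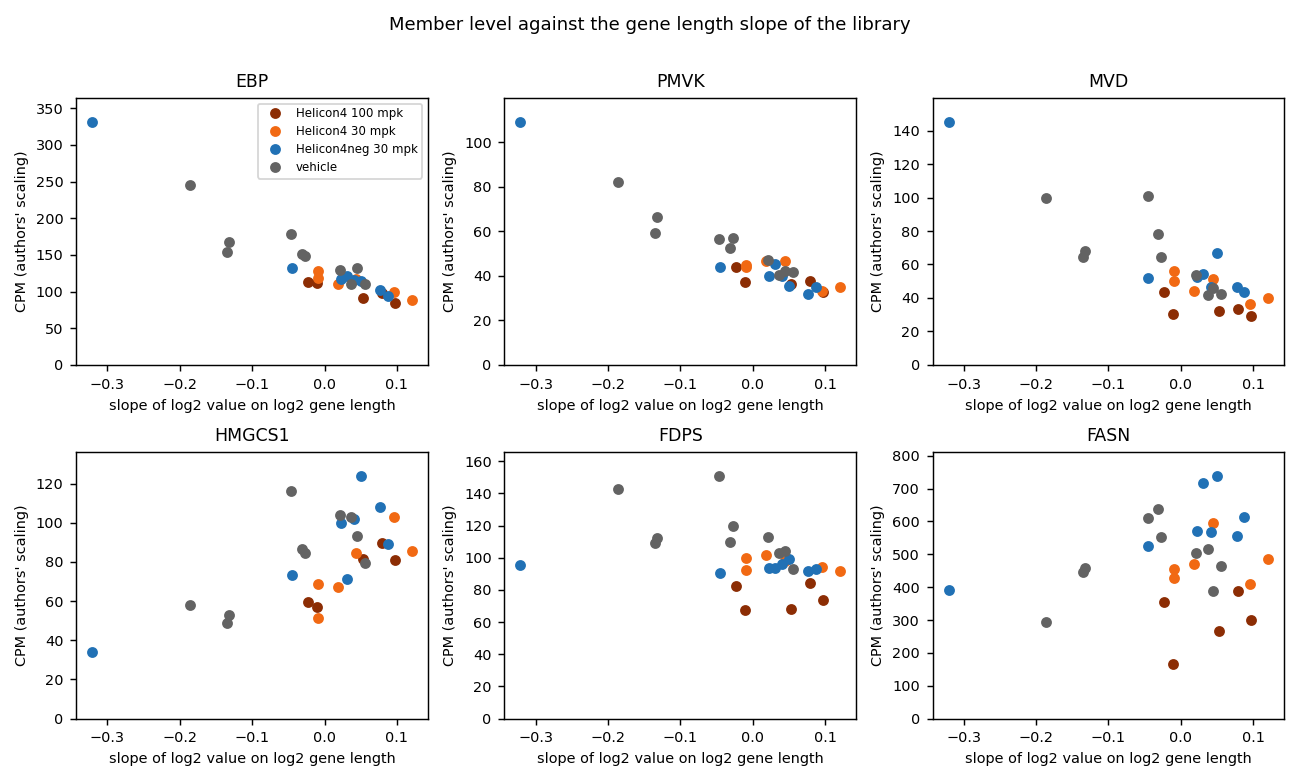
Level of 6 members in CPM (vertical axes) against the slope of log2 values on log2 gene length of each library (horizontal axes), 1 point per library, coloured by group. EBP, PMVK and MVD are high and HMGCS1 low at the most negative slope of -0.321, and for FDPS and FASN the Helicon4 100 mpk points sit at the bottom of the plot over their own range of slopes.

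Helicon4 at 30 mpk against vehicle gave a smaller difference. Of the 35 members 2 fell and 0 rose, against 5.22% and 5.86% of all genes, which is close to that background. With library weights 17 members fell, in a fit that called 3844 of all genes against 1481. Without the 2 libraries that stood apart 3 fell, the third being EBP at -0.35 (limma adjusted p = 0.016), and calls over all genes were 2198. FDPS lay between 91.5 and 102 CPM with Helicon4 at 30 mpk (median 96.1) and between 92.9 and 151 CPM with vehicle (median 111). Its log2 fold change was -0.25 ± 0.08 (limma adjusted p = 0.0386), with all 6 treated libraries below the vehicle median. ACAT2 ranged from 37.9 to 47.8 CPM with Helicon4 at 30 mpk and from 37.1 to 89.5 CPM with vehicle (median 60.5), for a log2 fold change of -0.39 ± 0.13 (limma adjusted p = 0.0431). Those calls were lost in 8 and 10 of 29 fits that left out 1 library, and the count of members that fell ran from 0 to 6, reaching 6 without Helicon4neg replicate 2. In a fit of only these 2 groups the adjusted p from limma was 0.0769 for FDPS and 0.0742 for ACAT2. The median member stood at -0.12 on the log2 scale, with 29 of 35 below 0. At this dose SREBF2 stood at -0.05 (95% interval -0.25 to 0.16), FASN at -0.02 (-0.35 to 0.30) and LSS at -0.21 (-0.46 to 0.05), and 28 of the 33 members that did not pass had an interval that excluded a 1.5-fold change. Of the lists beside the members, SCARB1, STARD3, PDSS1 and ERLIN1 fell and ACACB rose.

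Helicon4neg at 30 mpk against vehicle asks what the control peptide did. FDPS fell and no other member passed, so 1 fell and 0 rose, against 2.62% and 2.21% of all genes. FDPS lay between 90.5 and 99.0 CPM with Helicon4neg and between 92.9 and 151 CPM with vehicle, and all 8 Helicon4neg libraries were below the vehicle median. The log2 fold change of -0.28 ± 0.07 (limma adjusted p = 0.0208) held in every fit that left out 1 library, but not in a fit of only these 2 groups (limma adjusted p = 0.0673). Within the one title code that holds both groups, with 5 Helicon4neg and 2 vehicle libraries, the difference for FDPS was -0.04, and with the title code in the fit the call was lost. ACSS2 stood at 0.32 (95% interval 0.09 to 0.55, limma adjusted p = 0.0982) and FASN at 0.27 (-0.03 to 0.57), both above 0 and not past the threshold. Without the 2 libraries that stood apart 4 members fell: FDPS, EBP at -0.31, PMVK at -0.39 and TM7SF2 at -0.38. In that fit calls over all genes were 2031 against 647. With library weights 11 fell, where calls over all genes were 3897 against 647. The median over the members was -0.06, with 21 of 35 below 0.

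Helicon4 against Helicon4neg compares both peptides at 30 mpk and 48 h. Of the 35 members 1 fell and 1 rose, against 7.31% and 7.78% of all genes. DHCR7 lay between 57.6 and 80.6 CPM with Helicon4 (median 66.0) and between 74.4 and 122 CPM with Helicon4neg (median 85.7). The log2 fold change was -0.41 ± 0.11 (limma adjusted p = 0.0117), or -0.35 (limma adjusted p = 0.0184) without the 2 libraries that stood apart, and all 6 Helicon4 libraries lay below the Helicon4neg median. TM7SF2 lay between 17.2 and 26.4 CPM with Helicon4 (median 22.6) and between 11.7 and 25.7 CPM with Helicon4neg (median 14.2), the top value being replicate 2. Its log2 fold change was 0.53 ± 0.15 (limma adjusted p = 0.0156) with that library and 0.64 (limma adjusted p = 0.000766) without the 2 that stood apart, where 1 member fell and 1 rose as well. Both genes encode sterol reductases, of different double bonds in the sterol ring. Within the shared title code, with 1 Helicon4 and 3 Helicon4neg libraries, the differences were -0.29 for DHCR7 and 0.66 for TM7SF2. With the title code in the fit both calls were lost (limma adjusted p = 0.974 for DHCR7 and 0.445 for TM7SF2). With library weights 13 members fell, where calls over all genes were 4921 against 2018.

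The other 33 members did not pass between the peptides at this dose. FDPS differed by 0.03 (95% interval -0.14 to 0.20), SCD by 0.02 (-0.24 to 0.27), SREBF2 by -0.18 (-0.40 to 0.03) and FASN by -0.29 (-0.63 to 0.05) on the log2 scale. For 27 of the 33 the interval excluded a 1.5-fold difference in either direction, and for 6 it reached a 1.5-fold lower level with Helicon4. Beyond the members, SCARB1 fell by 0.48, STARD3 by 0.56 and MYLIP by 0.36, and SCD5 rose by 0.56 and ELOVL4 by 0.35 on the log2 scale.

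The high against the low dose of Helicon4 compares 100 with 30 mpk. Of the 35 members 5 fell and 0 rose, against 1.86% and 1.74% of all genes. They were FDPS, LSS, SREBF2, ACSS2 and FASN, 1 or 2 from each role. FASN read 356, 165, 300, 267 and 387 CPM at 100 mpk, against 411 to 594 CPM at 30 mpk (median 462), with no overlap and a log2 fold change of -0.73 ± 0.19 (limma adjusted p = 0.0233). FDPS likewise had all 5 libraries at 100 mpk, up to 84.6 CPM, below the lowest of 91.5 CPM at 30 mpk, with a log2 fold change of -0.35 ± 0.09 (limma adjusted p = 0.0287). These 2 members were the ones whose groups lay apart, which held for 1.71% of all genes. ACSS2 had 22.1 to 38.4 CPM at 100 mpk and 35.4 to 50.5 CPM at 30 mpk (log2 fold change -0.62 ± 0.14, limma adjusted p = 0.0117).

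LSS had 47.9 to 81.0 CPM at 100 mpk and 75.9 to 103 CPM at 30 mpk, a log2 fold change of -0.57 ± 0.15 (limma adjusted p = 0.0278). SREBF2 had 163 to 257 CPM at 100 mpk and 253 to 349 CPM at 30 mpk, a log2 fold change of -0.41 ± 0.12 (limma adjusted p = 0.0485) that was lost in 19 of 29 fits leaving out 1 library. The calls of FDPS and LSS were lost in 6 of those fits each, that of FASN in 3 and that of ACSS2 in 1. SREBF1 stood at -0.54 (95% interval -0.87 to -0.22) and missed the threshold (limma adjusted p = 0.0523). The count of members that fell was 0 without Helicon4 100 mpk replicate 4, 1 without its replicate 2 or without Helicon4 30 mpk replicate 4, and 7 at most. It was 7 without the 2 libraries that stood apart and 11 with library weights, where calls over all genes were 1052 and 3904 against 482. With the title code in the fit all 5 calls were lost. The one code that holds both doses has 4 libraries at 100 mpk and 1 at 30 mpk, and in it 31 of 35 members were below 0 with a median of -0.30. In the full comparison the median was -0.15, and SCARB1 fell by 0.48 on the log2 scale.

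**Figure D5:**
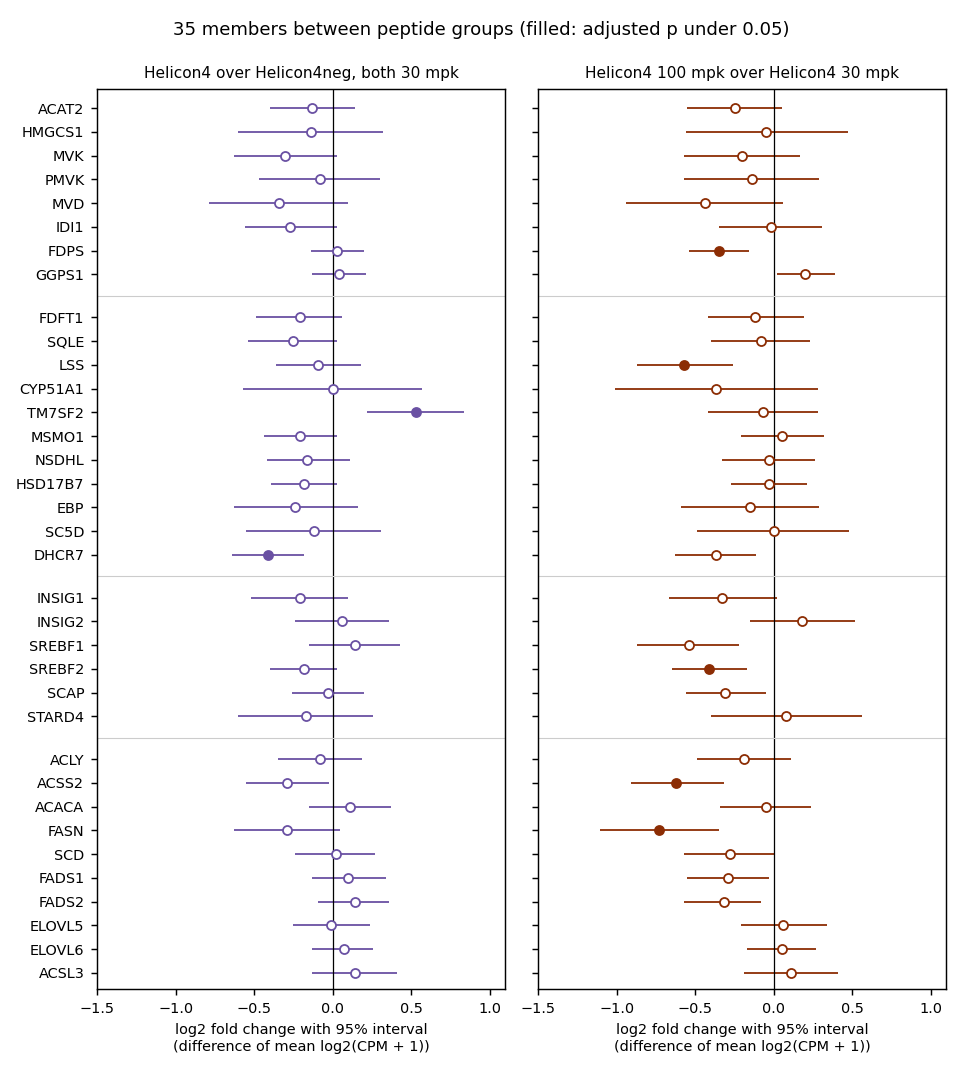
Log2 fold changes of the 35 members (rows, by role) for Helicon4 over Helicon4neg, both at 30 mpk, and for Helicon4 at 100 mpk over Helicon4 at 30 mpk; bars are 95% intervals from limma and filled points passed at an adjusted p under 0.05. DHCR7 on the left and TM7SF2 on the right of 0 are the filled points of the first panel, and FDPS, LSS, SREBF2, ACSS2 and FASN those of the second.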

How the data were processed

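Poly(A) RNA of 29 tumor libraries was run on a NovaSeq S4. The labels give a NEBNext Ultra II Directional kit for extraction and a TruSeq stranded mRNA kit for libraries, so the strand setting of the counting is not given in the sources used here. The submitters' processing notes list GRCh38 with Trimmomatic 0.39, STAR 2.7.7a, Subread 2.4.2 with featureCounts, and edgeR 4.0.2. A mouse genome is not among the builds listed, so RNA of the host may have been counted as human. The authors deposited 1 table of scaled signal, namely CPM, counts over an effective library size, per the file headers. Dividing by the value of 1 read gave whole reads in 100% of cases in each library (tolerance 0.05 reads). Column sums ran from 0.921 to 1.263 M (mega). All 29 columns were assigned to a sample.

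Genes had to reach 1 CPM in 5 or more libraries, which kept 13373 of 13492 and all 35 members. Tests used limma 3.58.1 (trend, robust; R 4.3.3) on log2(CPM + 1). The 4 groups entered 1 fit without covariates, in 5 comparisons, two-sided, with Benjamini-Hochberg adjustment over all genes and a threshold of 0.05. Fold changes on this scale understate changes of low genes; their errors are SE and those of CPM are SD. The design gave a test for counts and one for scaled values, and the latter applied; edgeR 4.0.16 and DESeq2 1.42.0 on recovered reads were alternatives. Other alternatives were 0.1 as pseudocount, all genes or only those of 5 CPM or more, TMM factors, no trend, only the 2 groups, a block of replicate number or title code, library weights, a length slope covariate, leaving out the 2 libraries that stood apart, and each library left out. The code was also tested on simulated data.

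Every member is named, with values by library for the 14 smallest adjusted p at 100 mpk, up to 4 called members of each other comparison, and SREBF1, SREBF2, INSIG1 and SCD. Members and lists were chosen with earlier results of these data known, and some genes of the lists beside the members are not reported here. Locations and exon overlaps come from GENCODE 29 (the authors' annotation is not given in the sources used here) and promoters from RefSeq on GRCh38.p14.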

Additional observations from a re-analysis of the deposited data

Results flagged for a closer look

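In groups of 4 to 10 libraries, a member was flagged where its highest or lowest library lay far from the nearest other one (Dixon's test at the 95% level). There were 20 flags in 140 groups of values, where chance gives about 1 in 20 groups. Helicon4neg replicate 2 accounted for 11 of them. It was highest of its group for MVK at 72.7 CPM (next 49.3), PMVK at 109 CPM (next 45.4), MVD at 145 CPM (next 67.1), TM7SF2 at 25.7 CPM (next 17.5), NSDHL at 93.1 CPM (next 58.9) and EBP at 331 CPM (next 132). The same library was lowest of its group for SC5D at 13.7 CPM (next 34.2), INSIG2 at 22.5 CPM (next 28.7), ELOVL5 at 39.3 CPM (next 61.6), ELOVL6 at 39 CPM (next 49.4) and ACSL3 at 36.7 CPM (next 55.6).

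Among the Helicon4 100 mpk libraries, replicate 4 was highest for INSIG2 at 63.3 CPM (next 35.4). Replicate 1 was lowest for ELOVL5 at 51.8 CPM (next 65.7), ELOVL6 at 49.4 CPM (next 57.3) and ACSL3 at 47.6 CPM (next 72.8). Helicon4 30 mpk replicate 6 was lowest for ACSS2 at 35.4 CPM (next 44.9). In the vehicle group, replicate 2 was highest for LSS at 173 CPM (next 131) and ACSS2 at 69.8 CPM (next 48.8), replicate 6 was highest for EBP at 246 CPM (next 179), and replicate 4 was lowest for ELOVL6 at 41.3 CPM (next 56.4). The calls for LSS and ACSS2 at 100 mpk against vehicle held in every fit that left out 1 library.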

How the results depend on the processing

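Of the 15 decreases at 100 mpk against vehicle, 15 were kept with another pseudocount, both other filters, TMM factors, no trend, only the 2 groups, library weights, the length slope covariate and without the 2 libraries that stood apart, 14 with edgeR's quasi-likelihood test and 13 with the replicate block. Replicate numbers did not pair the libraries: among 35 same-numbered pairs the residual correlation lay between -0.70 and 0.52 and exceeded 0.1 in 15, and for 0 of 27 libraries was the best match one of the same number. The replicate block gave 15 members lower and 1 higher at 100 mpk against vehicle, and 3 lower at 100 against 30 mpk. Its calls over all genes in those comparisons were 4431 and 366, against 4043 and 482 in the main fit. The title code block gave 0 calls in each direction of each comparison, and at 100 mpk against vehicle turned PMVK to 0.42 (limma adjusted p = 0.834), MVD to 0.29 (0.892), EBP to 0.17 (0.937), SREBF1 to 0.41 (0.809) and SCAP to 0.07 (0.948). The cause was not tested. At 100 mpk against vehicle 1 member rose with the length slope covariate and with DESeq2, which called 4438 of all genes there. At 30 mpk against vehicle 1 member fell with only the 2 groups, 17 with library weights and 5 with the slope, and 1 rose with either. For Helicon4neg against vehicle 0, 11 and 5 fell under the same 3 settings, 4 without the 2 libraries that stood apart, and 1 rose with weights and with the slope. Between the peptides at 30 mpk 13 fell with weights and 3 with the slope. At 100 against 30 mpk 11 fell with either, and 2 rose with weights. Calls over all genes also grew. The order here is 100 mpk, 30 mpk and Helicon4neg against vehicle, between the peptides, and 100 against 30 mpk. Calls over all genes were 6223, 3844, 3897, 4921 and 3904 with weights and 5113, 2249, 2383, 3440 and 2000 with the slope. Without the 2 libraries that stood apart they were 5276, 2198, 2031, 2579 and 1052. In the main fit they were 4043, 1481, 647, 2018 and 482.

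Leaving out 1 library gave 13 to 21 members lower and 0 to 1 higher at 100 mpk against vehicle, 0 to 6 and 0 at 30 mpk against vehicle, 1 to 4 and 0 to 1 for Helicon4neg against vehicle, 1 and 1 between the peptides, and 0 to 7 and 0 at 100 against 30 mpk. Calls over all genes in these fits are not reported here, so the counts have no background beside them. For 30 mpk against vehicle the count was 0 without vehicle replicates 2, 5 or 6 or Helicon4 30 mpk replicates 1, 3 or 5, and 1 without vehicle replicates 3, 7 or 10 or Helicon4 30 mpk replicates 2, 4 or 6. For Helicon4neg against vehicle it was 4 without Helicon4neg replicate 2 and 2 without vehicle replicate 4. For 100 against 30 mpk it was 2 without Helicon4 100 mpk replicate 3 or Helicon4 30 mpk replicate 3, and 3 without Helicon4 30 mpk replicate 2. CYP51A1 had as few as 11 reads in a library, and such low counts limit its value. Its lowest level, 0.425 CPM, was in vehicle replicate 6, a library of 60.9 M reads.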
